A study of Homo sapiens with 4 samples.

Results

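The enzymes that build the branches of N-glycans were measured in A2780s cells, an established human epithelial ovarian cancer (EOC) line, in clones labelled as knockouts (KO) of GALNT3 alone or of GALNT3 and GALNT6. GALNT3 and GALNT6 start O-glycosylation, a different pathway. The set holds 10 genes, MGAT1, MGAT2, MGAT3, MGAT4A, MGAT4B, MGAT5, MGAT5B, FUT8, MAN2A1 and MAN2A2. They are read by the 16 non-control probes that carry these gene names, of 41000 such probes on the array, and every one of them is reported. All 16 passed the filter on dim probes, which left 38251 probes for the test. MGAT3 was selected on its low log2 ratio on the GALNT3/T6-labelled arrays, so its values there, and against the other group, are a description with no test.

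The study set 2 GALNT3 KO clones, made with CRISPR/Cas9, and 2 clones that carry the label GALNT3/T6 KO against mock-transfected A2780s cells (Ctrl). Each KO clone was hybridized on an array of its own, with Ctrl RNA in Cy3 and KO RNA in Cy5, and there was no dye swap. By the labels and the study's methods, the GALNT3/T6 KO clones were GALNT3 KO clones that also received lentiviral shRNA against GALNT6. The GALNT3 signal goes against this description, as given below. The methods also describe control clones transduced with a scramble vector, but not whether these were the Ctrl on these arrays. Unless they were, transduction and its selection cannot be told apart from an effect of the shRNA. Each replicate is 1 clone, and whether 1 Ctrl RNA served all 4 arrays is not given in the sources used here. In bulk RNA, fewer cells that make a transcript and less of it in each cell cannot be told apart.

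N-glycans are sugar chains attached to asparagine in the endoplasmic reticulum and remodelled in the Golgi. There, MGAT1 starts the first antenna, the MAN2A mannosidases trim the opposite arm, and MGAT2, the MGAT4 enzymes and MGAT5 each start a further antenna. MGAT3 adds the bisecting N-acetylglucosamine, which hinders the later branching enzymes, and FUT8 adds fucose to the core. MGAT5 branching and the bisecting sugar made by MGAT3 are best known in cancer for their opposite links with the spread of tumor cells.

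Each array carried 45015 spots, 1639 of them controls. Between 86.9% and 93.8% of the other spots exceeded background clearly in a channel, and there was no saturated spot. Across probes the Ctrl channels of the 4 arrays correlated at 0.978 to 0.997. The Ctrl channel of GALNT3 KO array 1 stood apart, with a median absolute log2 difference of 0.28 from each of the others, against 0.08 to 0.11 among the other arrays. Of 6 epithelial markers 5 were well above background in the Ctrl channel on all 4 arrays, among them KRT8, KRT18 and KRT19. All 5 leukocyte markers passed that mark as well, so it does not set cell types apart here. EPCAM, at log2 signals of 8.13 to 8.33, and CDH1, at 7.35 to 7.50, were dim in Ctrl. On the GALNT3 KO arrays neither channel of GALNT3 stood well above background, so the probe shows no loss there. With the other group its log2 ratio of KO over Ctrl was 4.80 and 5.08, which goes against the label GALNT3/T6 KO. Those arrays are therefore named by their label throughout, and the GALNT3 KO arrays are also given alone. GALNT6 stood at -0.47 and -0.38 on the GALNT3 KO arrays and at -0.66 and -0.69 on the GALNT3/T6-labelled arrays. limma called both means lower than Ctrl, at -0.42 (adjusted p = 0.044) and -0.67 (adjusted p = 0.00312). It did not call the difference between the groups of -0.25 (adjusted p = 0.211). The study reported more GALNT6 protein in its GALNT3 KO clones, while RNA is read here.

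On the GALNT3/T6-labelled arrays, whose values selected it, MGAT3 was the branching enzyme with the lowest ratios. It has 2 probes on the array, both on the plus strand of chromosome 22 (hg19). The array design places A_23_P91742 at base 1542 of the MGAT3 transcript, at chr22:39884656-39884715, and A_24_P245838 at base 4978, at chr22:39888092-39888151. The probe sequences are shown because the probes gave different answers. The first is printed in full and the second to its first 30 bases, 5′ to 3′.
A_23_P91742: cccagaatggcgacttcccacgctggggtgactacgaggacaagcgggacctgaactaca
A_24_P245838, first 30 bases: acattctgaaatcattttctctgtaaatgg
Of the 60 bases, 36 are G or C in A_23_P91742 (60%) and 21 in A_24_P245838 (35%).

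With A_24_P245838 the log2 ratio of KO over Ctrl was -0.56 and -0.67 on the GALNT3 KO arrays. It was -4.66 and -5.04 on the GALNT3/T6-labelled arrays, 25.3-fold and 32.9-fold below Ctrl. Both groups lay below Ctrl and they did not overlap, with the GALNT3/T6-labelled arrays far lower. Their mean of -4.85, 28.8-fold below Ctrl, was the sixth lowest among 27225 genes, each taken by its brightest probe. The mean of the GALNT3 KO arrays was -0.61 (standard error 0.12), or 1.53-fold lower than Ctrl. MGAT3 was picked on the other group, yet this value is not independent of the pick. Both groups share 1 estimate of the spread in the fit, and 1 Ctrl RNA may have served all arrays. limma called the GALNT3 KO mean at an adjusted p of 0.0448. The call was lost with Agilent's own log ratio, at -0.32 and an adjusted p of 0.227. Leaving out GALNT3 KO replicate 1 gave an adjusted p of 0.289 and leaving out replicate 2 one of 0.435, and in both fits 0 of all probes tested were called. On the GALNT3 KO arrays fitted alone the adjusted p was 0.00143.

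The Ctrl channel of this probe hardly varied. Its log2 signal was 12.69 and 12.68 on the GALNT3 KO arrays and 12.67 and 12.73 on the GALNT3/T6-labelled arrays. That range of 0.06 compares with a median range of 0.38 over all probes tested, and 99% of the probes had a range at least as large. The KO channel read 12.13 and 12.01 in GALNT3 KO and 8.01 and 7.69 on the GALNT3/T6-labelled arrays. All 8 channel readings were well above background, so the low ratio came from the KO channel and is not a bound.

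The other MGAT3 probe, A_23_P91742, was dim everywhere. The GALNT3 KO arrays gave log2 ratios of -0.07 and -0.14, and the values were -0.04 and -0.07 on the GALNT3/T6-labelled arrays. Its Ctrl signal lay between 6.81 and 7.33 and its KO signal between 6.69 and 7.26, and 6 of the 8 channel readings were well above background. limma did not call its GALNT3 KO mean of -0.11 (standard error 0.08, adjusted p = 0.387). The mean of both probes on the GALNT3/T6-labelled arrays was -2.45, so the size of the MGAT3 change rests on A_24_P245838. Which exon or untranslated part each probe reads is not given here.

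**Figure D1:**
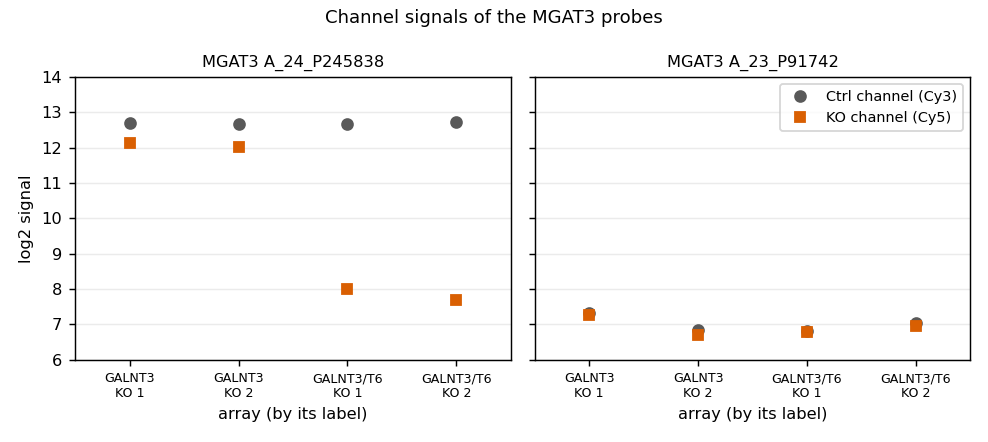
Log2 signals (y axis) of the Ctrl channel (grey circles) and the KO channel (orange squares) of both MGAT3 probes on each array (x axis). For A_24_P245838 the Ctrl points sit between 12.67 and 12.73 and the KO points drop to 8.01 and 7.69 on the GALNT3/T6-labelled arrays, while for A_23_P91742 all points lie between 6.69 and 7.33.

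Over the whole set, the GALNT3 KO arrays showed few called members and the GALNT3/T6-labelled arrays showed rises in 6 genes beside the MGAT3 description. In GALNT3 KO, limma called 2 of 16 member probes, 1 of MGAT3 and 1 of MAN2A2, and both were lower than Ctrl. That is 12.5% of the members against 11.5% of all probes tested, so the count is close to the background, and 7.15% of all probes were called lower. The count includes the MGAT3 probe, whose value is not independent of the pick. Apart from MGAT3, only the MAN2A2 probe was called. On the GALNT3/T6-labelled arrays, 8 of the 14 probes other than those of MGAT3 were called, 57.1% against 48.9% of all probes. All 8 were higher than Ctrl, where 24.1% of all probes were called higher, and they belong to MAN2A1, MAN2A2, FUT8, MGAT4A, MGAT4B and MGAT5B. The median log2 ratio over the 14 probes was 0.56, against 0.01 over all probes. The members were chosen with earlier results of these data known, so these shares and medians describe the set without a test. Median centring in place of loess left 4 of the 8 called.

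Between the groups, 7 of these 14 probes were called, 50% against 25.3% of all probes. Each of the 7 was higher on the GALNT3/T6-labelled arrays, a direction in which 12.5% of all probes were called. They came from the same 6 genes. The median difference over the 14 probes was 0.62, against 0.00 over all probes. Here too the shares and medians describe a set chosen with earlier results known, without a test of the set. Without GALNT3 KO replicate 1 the count fell to 1 and without replicate 2 to 1, and MAN2A2 A_23_P206041 was the probe still called in both. Without GALNT3/T6 KO replicate 1 it was 8 and without replicate 2 it was 7. Ratios of the groups that do not overlap are common on these arrays, at 62.4% of all probes.

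Markers of several cell types moved with these rises. Against Ctrl, 5 of 6 epithelial markers were called higher on the GALNT3/T6-labelled arrays and 0 in GALNT3 KO, with KRT18 at 5.68, KRT19 at 4.81, KRT7 at 2.89 and KRT8 at 2.83. The log2 of their summed KO signal lay between 12.84 and 13.04 on the GALNT3 KO arrays and between 19.76 and 19.85 on the others. Their summed Ctrl signal was brighter as well, at 15.00 to 15.45 against 12.60 to 12.71. Of 5 stromal markers 2 were higher, PDGFRB at 3.44 and COL1A1 at 1.98, and 2 lower, LUM at -1.19 and COL1A2 at -0.32. In GALNT3 KO the called markers were LUM at -1.07, COL1A2 at 0.62 and the endothelial marker KDR at 0.56. On the GALNT3/T6-labelled arrays the summed stromal KO signal was 12.69 to 13.59, against 10.73 to 10.92. Among 5 leukocyte markers CD68, at 1.70, was higher and CD3E, at -0.36, lower (summed KO signal 12.45 to 12.68 against 12.08 to 12.12). VWF at 1.32 and KDR at 1.21 were higher of the 3 endothelial markers tested (11.89 to 12.08 against 11.44 to 11.79), and PECAM1 was not well above background on any array. Of 6 ovarian and Mullerian markers PAX8 at 1.21 and WT1 at 1.01 were higher (12.54 to 12.64 against 12.23 to 12.37). The part of these differences in the members' values was not tested.

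**Figure D2:**
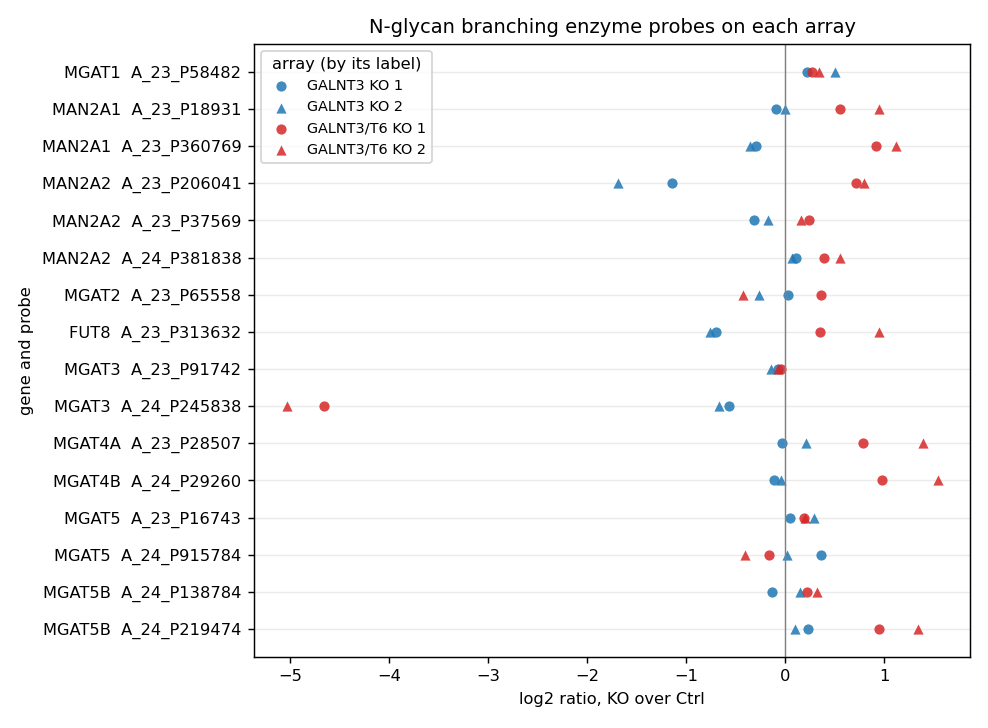
Log2 ratios of KO over Ctrl (x axis) of the 16 member probes (y axis) on the GALNT3 KO arrays (blue) and the GALNT3/T6-labelled arrays (red), with circles for replicate 1 and triangles for replicate 2. The MGAT3 probe A_24_P245838 stands alone at -4.66 and -5.04, while the red points of MAN2A1, MGAT4A, MGAT4B and FUT8 lie to the right of the blue ones.

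The pathway to branched glycans opens with MGAT1, read at chr5:180218019-180218078. It gave log2 ratios of 0.22 and 0.50 in GALNT3 KO and of 0.27 and 0.34 on the GALNT3/T6-labelled arrays. All 4 ratios were above 0 and the groups overlapped. The means were 0.36 (adjusted p = 0.0863) and 0.31 (adjusted p = 0.0639) by limma, and neither was called. Its groups differed by -0.05, with a 95% confidence interval of -0.44 to 0.33. With Agilent's own log ratio the mean on the GALNT3/T6-labelled arrays changed sign, to -0.14.

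MAN2A1 and MAN2A2 encode the Golgi alpha-mannosidases II, which open the arm that MGAT2 needs. Both of the MAN2A1 probes lie on chromosome 5. With A_23_P360769, at chr5:109200837-109202595, the log2 ratio was -0.30 and -0.36 in GALNT3 KO and 0.91 and 1.12 on the GALNT3/T6-labelled arrays. The 2 GALNT3 KO arrays were below Ctrl and the others above it, with no overlap. The mean on the GALNT3/T6-labelled arrays was 1.02 (standard error 0.09), or 2.02-fold higher (limma, adjusted p = 0.00132). It exceeded the GALNT3 KO mean by 1.34 (standard error 0.13, adjusted p = 0.00327). The second MAN2A1 probe, A_23_P18931 at chr5:109190901-109190960, gave -0.09 and 0.00 in GALNT3 KO and 0.55 and 0.95 on the GALNT3/T6-labelled arrays. It too was called, with a mean of 0.75 against Ctrl (adjusted p = 0.00753) and a difference of 0.80 between the groups (adjusted p = 0.0305). Its call against Ctrl was lost with median centring, at 0.52 and an adjusted p of 0.0795, and its call between the groups with Agilent's log ratio, at 0.63 and 0.0589. In GALNT3 KO neither MAN2A1 probe was called, with adjusted p of 0.0843 and 0.794.

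MAN2A2 has 3 probes on chromosome 15, and they disagreed in size and, in GALNT3 KO, also in direction. A_23_P206041, at chr15:91464233-91464291, stood at -1.15 and -1.68 in GALNT3 KO and at 0.72 and 0.80 on the GALNT3/T6-labelled arrays. The 2 groups lay on opposite sides of Ctrl. Its GALNT3 KO mean of -1.42 (standard error 0.15) was 2.67-fold lower than Ctrl (limma, adjusted p = 0.0194). Agilent's log ratio gave -1.06 and ended the call (adjusted p = 0.062), as did leaving out GALNT3 KO replicate 1 (0.281) or 2 (0.395). On the GALNT3/T6-labelled arrays the mean was 0.76 (adjusted p = 0.0128), which median centring lowered to 0.51 (adjusted p = 0.0858). The difference between the groups, 2.18 (standard error 0.21, adjusted p = 0.00303), was the largest among the members tested. It was called under every alternative run, with values from 1.00 to 2.44. The Ctrl channel of this probe differed by 0.12 between the groups and the KO channel by 2.30.

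The other MAN2A2 probes moved less. A_24_P381838, at chr15:91463770-91463829, gave 0.11 and 0.07 in GALNT3 KO and 0.40 and 0.56 on the GALNT3/T6-labelled arrays. Its mean of 0.48 there was called (adjusted p = 0.011) but not with median centring, at 0.26 and 0.197, or with these arrays fitted alone, at 0.0509, and its difference between the groups of 0.39 was not (adjusted p = 0.089). A_23_P37569, at chr15:91465544-91465603, gave -0.31 and -0.17 in GALNT3 KO and 0.24 and 0.16 on the GALNT3/T6-labelled arrays. None of its comparisons was called, with adjusted p between 0.0609 and 0.127, though Agilent's log ratio put it at 0.39 on the GALNT3/T6-labelled arrays (adjusted p = 0.0383). All 3 probes were higher on both GALNT3/T6-labelled arrays than on either GALNT3 KO array. Groups that do not overlap, in either direction, were seen for 62.4% of all probes, and only A_23_P206041 had a called difference. The fall in GALNT3 KO was called by A_23_P206041 alone.

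MGAT2, which starts the second antenna, was read at chr14:50089817-50089876. Its log2 ratio was 0.03 and -0.26 in GALNT3 KO. On the GALNT3/T6-labelled arrays the clones pointed in opposite directions, at 0.37 and -0.43. No comparison was called with all arrays, but without GALNT3/T6 KO replicate 1 the value of -0.43 against Ctrl was (adjusted p = 0.0404). In the full fit the difference between the groups was 0.08, with a 95% confidence interval of -0.68 to 0.85.

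FUT8, the fucosyltransferase that acts on the glycan core, was read at chr14:66209523-66209582. Its log2 ratio was -0.70 and -0.76 in GALNT3 KO and 0.35 and 0.95 on the GALNT3/T6-labelled arrays. The GALNT3 KO arrays lay below Ctrl and the others above it. Set against Ctrl, the GALNT3 KO mean was -0.73 (standard error 0.16) and just missed the threshold (adjusted p = 0.0524 from limma). On the GALNT3 KO arrays fitted alone the adjusted p was 0.000564. The mean on the GALNT3/T6-labelled arrays was 0.65, or 1.57-fold higher (adjusted p = 0.0253). That call was lost with median centring, at 0.44 and an adjusted p of 0.172, with these arrays fitted alone, at 0.0903, and without GALNT3/T6 KO replicate 2, at 0.35 and 0.0548. Between the groups FUT8 differed by 1.38 (standard error 0.22), or 2.60-fold (adjusted p = 0.0132). The Ctrl signal of FUT8 stayed between 11.32 and 11.45, and the KO signal was 10.75 and 10.62 against 11.67 and 12.27.

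MGAT4A and MGAT4B add the antenna on the arm that MGAT1 opens. MGAT4A, at chr2:99242197-99242256, had log2 ratios of -0.03 and 0.21 in GALNT3 KO and of 0.79 and 1.39 on the GALNT3/T6-labelled arrays. The groups did not overlap. The mean against Ctrl was 1.09 (standard error 0.17) on the GALNT3/T6-labelled arrays, or 2.13-fold higher (limma, adjusted p = 0.00629), and 0.09 (adjusted p = 0.711) in GALNT3 KO. The groups differed by 1.00 (adjusted p = 0.0403), a call that median centring ended at 0.91 and 0.108. The Ctrl channel moved as well. It read 8.14 on GALNT3 KO array 1 against 9.84 on array 2 and 10.02 and 9.64 on the GALNT3/T6-labelled arrays. This Ctrl range of 1.89 was reached by only 0.995% of the probes tested, and GALNT3 KO array 1 is the array whose Ctrl channel stood apart. Without GALNT3 KO replicate 1 the difference was 0.88 (adjusted p = 0.261).

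MGAT4B, at chr5:179226096-179226236, had log2 ratios of -0.11 and -0.05 in GALNT3 KO and of 0.98 and 1.55 on the GALNT3/T6-labelled arrays. Only the GALNT3/T6-labelled arrays stood apart from Ctrl. Their mean was 1.26 (standard error 0.15), or 2.40-fold higher (adjusted p = 0.00299 from limma), and it exceeded that of GALNT3 KO by 1.34 (adjusted p = 0.0129). Its Ctrl signal rose from 9.01 and 9.66 on the GALNT3 KO arrays to 9.72 and 9.99. A Ctrl range as large, 0.98, was seen in 7.25% of the probes. The difference between the groups was 1.86 in the KO channel and 0.52 in the Ctrl channel. The part of the Ctrl channel in the MGAT4A and MGAT4B ratios was not tested.

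**Figure D3:**
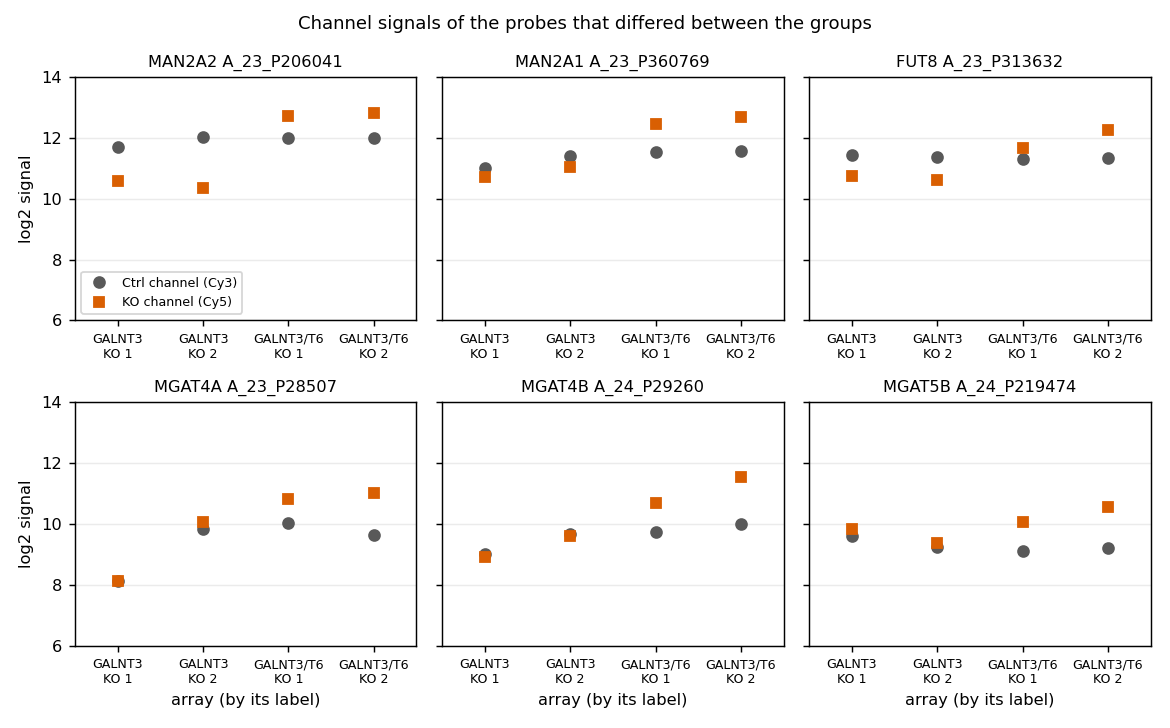
Log2 signals (y axis) of the Ctrl channel (grey circles) and the KO channel (orange squares) on each array (x axis), for 1 probe of each gene that differed between the groups. The FUT8 and MAN2A2 Ctrl points are nearly level and their KO points cross from below to above them, while the MGAT4A Ctrl point sits at 8.14 on GALNT3 KO array 1 and at 9.64 to 10.02 elsewhere.

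MGAT5 starts the antenna that is later lengthened into the ligands of galectins. Its 2 probes on chromosome 2 showed no called change. A_24_P915784, at chr2:135209404-135209463, gave 0.36 and 0.02 in GALNT3 KO and -0.16 and -0.41 on the GALNT3/T6-labelled arrays. The groups did not overlap, yet the difference of -0.48 was not called (adjusted p = 0.126, 95% confidence interval -0.94 to -0.02). Without GALNT3/T6 KO replicate 1 it was -0.60 and called (adjusted p = 0.0355). With Agilent's own log ratio the fall against Ctrl on the GALNT3/T6-labelled arrays was -0.60 and called, at an adjusted p of 0.0193. A_23_P16743, at chr2:135180478-135185982, gave 0.05 and 0.30 in GALNT3 KO and 0.19 and 0.20 on the GALNT3/T6-labelled arrays. It was dim, with 5 of its 8 channel readings well above background, and its difference between the groups was 0.02 (95% confidence interval -0.34 to 0.39).

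MGAT5B, a relative of MGAT5 known mainly from brain, also acts on O-mannose glycans. Its 2 probes on chromosome 17 disagreed. A_24_P219474, at chr17:74946345-74946404, gave 0.23 and 0.11 in GALNT3 KO and 0.95 and 1.35 on the GALNT3/T6-labelled arrays. Here too the groups did not overlap. The mean on the GALNT3/T6-labelled arrays was 1.15 (standard error 0.12), or 2.22-fold higher than Ctrl (limma, adjusted p = 0.00209), and it exceeded GALNT3 KO by 0.98 (adjusted p = 0.0173). In the KO channel alone the groups differed by 0.71, and the Ctrl channel differed by -0.28. A_24_P138784, at chr17:74901279-74901338, gave -0.13 and 0.15 in GALNT3 KO and 0.22 and 0.32 on the GALNT3/T6-labelled arrays, with no call. Its KO channel was lower by 0.41 on the GALNT3/T6-labelled arrays, and its Ctrl channel was lower by 0.67, so its positive ratio there did not come with a brighter KO signal.

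**Figure D4:**
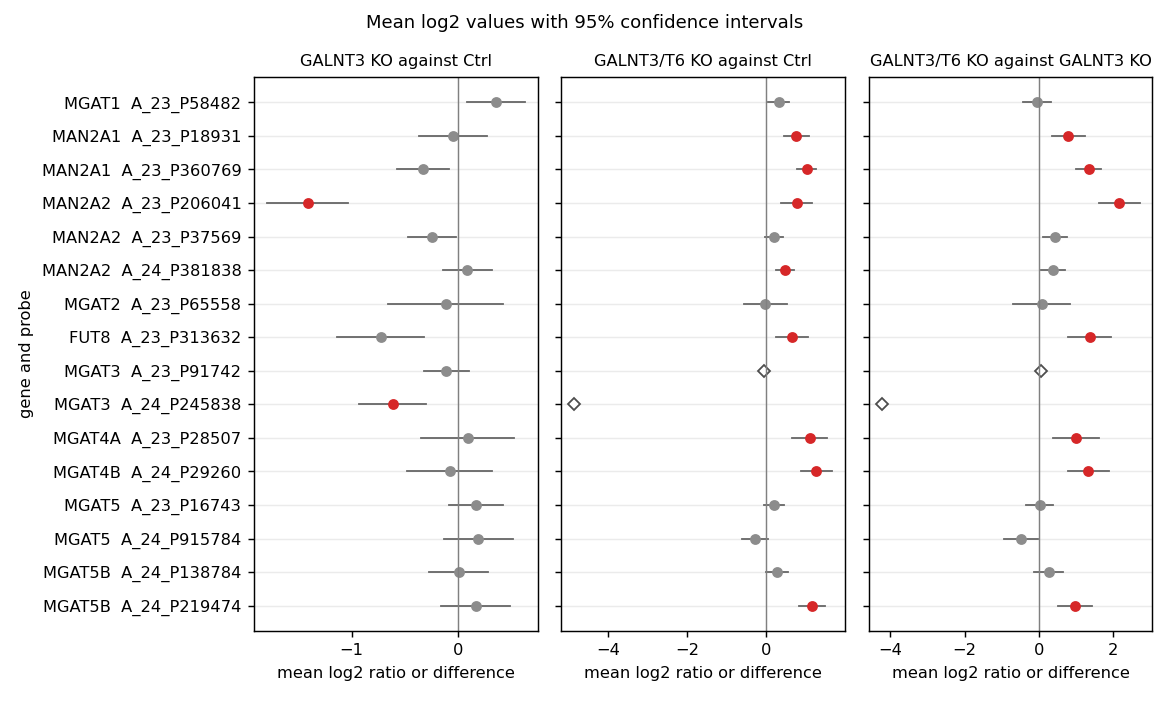
Mean log2 ratio or difference (x axis, with a scale of its own in each panel) of each member probe (y axis) in the 3 comparisons, with 95% confidence intervals from limma. Red points were called at an adjusted p of at most 0.05, grey points were not, and open diamonds are MGAT3 values shown without a test. The red points lie below 0 in GALNT3 KO against Ctrl and above 0 in the other panels.

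With the GALNT3 KO arrays fitted alone, 5 of the 16 member probes were called against Ctrl. They were MGAT1, higher at 0.36 (adjusted p = 0.0265), and MGAT3 A_24_P245838, FUT8, MAN2A1 A_23_P360769 (adjusted p = 0.0261) and MAN2A2 A_23_P206041, all lower. In that fit 35.7% of all probes were called, against 31.2% of the members.

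Of the other N-glycan genes, 88 in 7 lists were measured, each by its brightest probe. In GALNT3 KO 7 were called higher and 6 lower, or 14.8% against 11.5% of all genes. The GALNT3/T6-labelled arrays had 30 higher and 22 lower, or 59.1% against 48.1% of all genes. Between the groups 19 were higher and 19 lower, or 43.2% against 24.3%. The lists were chosen with results of these data in view, and their counts and medians describe them without a test. The calls in GALNT3 KO were not stable. Of the 13, PGM3 and CDH2 were still called with Agilent's own log ratio and 0 without either GALNT3 KO array.

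Upstream of branching, the shares called on the GALNT3/T6-labelled arrays were near the 48.1% of all genes in the first 2 lists. Of the 22 genes that assemble the lipid-linked precursor, 4 were higher and 6 lower than in Ctrl (45.5%). DPM3, which anchors the dolichol-phosphate mannose synthase, was at -1.54 (adjusted p = 0.00073), and the glucosyltransferases ALG10B and ALG6 were at -1.50 and -1.12. In GALNT3 KO the called genes were ALG2 at 0.65, ALG1 at 0.58 and DPM1 at -0.59. Under the alternatives ALG1 fell as low as 0.11. The 12 genes of the oligosaccharyltransferase, which transfers the glycan to protein, gave 2 higher and 4 lower (50%). Of its catalytic subunits, STT3A was at -1.49 (adjusted p = 0.00268) and STT3B at -0.05, not called (adjusted p = 0.675). TUSC3 was at -1.22 and TMEM258 at 0.94. OST4 was the only called gene of this list in GALNT3 KO, at 0.56 (adjusted p = 0.0377). Among 11 genes of trimming and folding control in the endoplasmic reticulum, 2 were higher and 5 lower (63.6%). EDEM2, a mannosidase-like protein of misfolded glycoprotein disposal, was at -0.59 in GALNT3 KO and 1.61 on the GALNT3/T6-labelled arrays. The folding sensors UGGT1 and UGGT2 were at -1.16 and -1.10 there. Of the 3 Golgi mannosidase I genes, MAN1C1 at 0.92 (adjusted p = 0.0471) and MAN1A1 at 0.66 (adjusted p = 0.0377) were higher there. Their 2 arrays differed, at 0.41 and 1.44 for MAN1C1 and at 0.29 and 1.02 for MAN1A1. Both calls were lost with those arrays fitted alone and without GALNT3/T6 KO replicate 2.

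The sugar donors and their carriers gave 6 higher and 4 lower of 16 on the GALNT3/T6-labelled arrays (62.5%). All branching enzymes of the MGAT family use UDP-N-acetylglucosamine, which GFPT1, GFPT2, GNPNAT1, PGM3 and UAP1 make. GNPNAT1 was at -1.48 (adjusted p = 0.000462) against Ctrl and lower by 1.90 than in GALNT3 KO. On the GALNT3/T6-labelled arrays GFPT2 was called higher than Ctrl, at 0.95 (adjusted p = 0.00186). PGM3 at 0.10, GFPT1 at 0.28 and UAP1 at -0.20 were not called there. In GALNT3 KO the called genes of this step were PGM3 at -1.26 (adjusted p = 0.0172), GFPT1 at -0.63 and GFPT2 at -0.53. GNPNAT1 at 0.42 and UAP1 at -0.08 were not called in GALNT3 KO. SLC35A2, the Golgi carrier of UDP-galactose, was at 1.58 and GNE, the first enzyme of sialic acid synthesis, at -1.36 on the GALNT3/T6-labelled arrays. SLC35A1, the carrier of CMP-sialic acid, was called in GALNT3 KO at 0.58, with a lowest value of 0.10 under the alternatives.

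Antenna extension and capping gave 5 higher and 3 lower of 14 (57.1%). ST6GAL1, which caps antennae with sialic acid, had log2 ratios of -0.26 and -0.47 in GALNT3 KO and of -2.91 and -3.13 on the GALNT3/T6-labelled arrays. Like MGAT3 it lay below Ctrl on all 4 arrays, and its mean on the GALNT3/T6-labelled arrays was -3.02 (adjusted p = 0.000122 from limma). Under the alternatives that mean ran from -3.16 to -1.76. B4GALT5 and B4GALT4, which add galactose, stood at 2.78 and 1.62 there. In GALNT3 KO the called genes were B4GALT1 at 0.57 and the sialyltransferase ST3GAL3 at -0.47.

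The last list holds 10 glycoproteins that carry branched N-glycans and lectins that bind them. On the GALNT3/T6-labelled arrays 9 of the 10 (90%) were called higher and none lower, while 48.1% of all genes were called in either direction. This list was chosen with results of these data in view. Its median was 1.29 against 0.03 over all genes. LGALS3 (galectin-3, which binds the lengthened antennae) had log2 ratios of 0.03 and 0.58 in GALNT3 KO and of 6.20 and 5.34 on the GALNT3/T6-labelled arrays. The receptor TGFBR2 was at 3.48 (adjusted p = 9.11e-05) and the integrin ITGA3 at 3.02 (adjusted p = 0.000134) there. The Ctrl channel of ITGA3 was brighter too on these arrays, at 9.65 and 10.63, while GALNT3 KO arrays read 7.19 and 6.79. CDH2 (N-cadherin) was the only gene of the list called in GALNT3 KO, at 2.54 (adjusted p = 0.0109). It was as high on the GALNT3/T6-labelled arrays, at 2.54 (limma, adjusted p = 0.000735), with a difference of 0.01 between the groups.

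**Figure D5:**
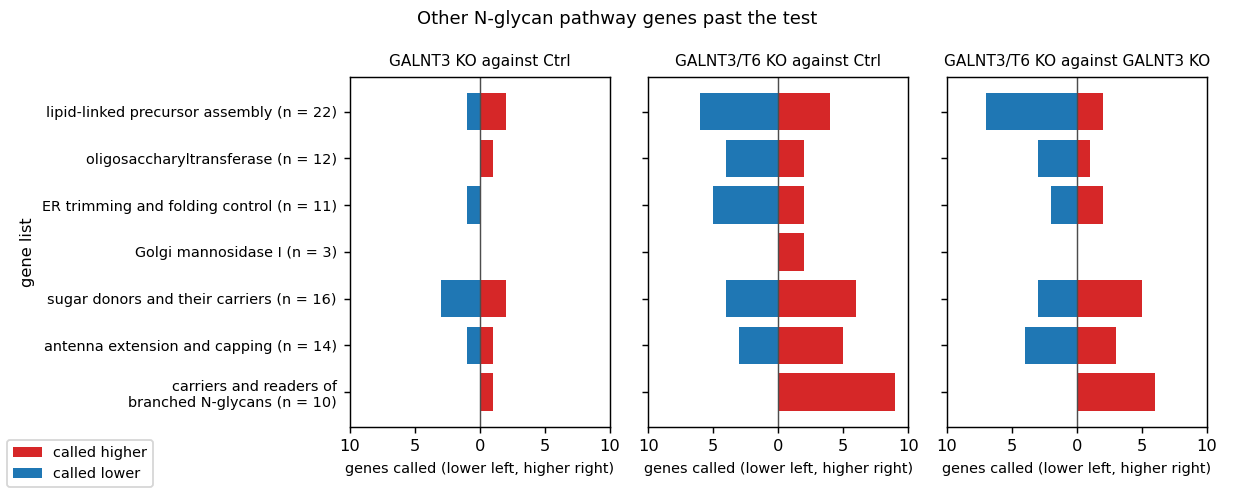
Numbers of genes called lower (blue, to the left) and higher (red, to the right) in 7 lists of other N-glycan genes (y axis, with the number tested), for the 3 comparisons. In the middle panel 9 of 10 carriers and readers of branched N-glycans were higher and none lower, while the oligosaccharyltransferase had 4 lower and 2 higher. There 48.1% of all genes were called in either direction, and the lists were chosen with results of these data in view.

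The 5 genes whose ratios lay nearest to those of MGAT3 A_24_P245838, by Euclidean distance over the log2 ratios of the 4 arrays, were RASGEF1A, OCA2, UNC5B, DLX2 and KBTBD7, at distances of 0.46 to 0.57. RASGEF1A, the nearest, had log2 ratios of -0.84 and -0.996 in GALNT3 KO and of -4.66 and -4.87 on the GALNT3/T6-labelled arrays. With 4 arrays in 2 groups, the distance reflects mainly the level of each group.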

How the data were processed

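Total RNA of 4 KO clones was measured on 4 two-colour Agilent arrays of 1 slide. The scanner files hold spot intensities, background intensities, log10 ratios and quality flags as the authors deposited them. Per the labels they were extracted with Feature Extraction 8.5.1.1, and per the file headers with version 10.7.3.1. Probe positions are hg19 per the file headers. The deposited value table holds the scanner's log10 ratio (red over green), with column medians from 0 to 0.0046. Of its 180060 values, 0 differed from the scanner files.

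Mean intensities were corrected with normexp (offset 50) and normalized by loess within each array in limma 3.58.1 (R 4.3.3). Control spots and outlier spots had weight 0 in the loess, and outliers were left out. Spots of a probe were averaged. Channel signals are log2 values after loess and Aquantile normalization. A probe was kept, 38251 of 41000, if both arrays of either group had it well above background in 1 channel or both. limma fitted the 4 arrays in 1 model with a mean per group, and p-values were adjusted by Benjamini-Hochberg over all probes tested. A probe was called at an adjusted p of at most 0.05. The test of a group against Ctrl sets the ratio against 0 and leaves out the spread of Ctrl if 1 Ctrl RNA served all arrays. The script was tested on simulated data.

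All 16 member probes are named. Of each other list, up to 3 called genes with the largest change per comparison are named. STT3B and UAP1, which were not called, are given for context and are not counted among them. The members, lists and named genes were chosen with earlier results of these data known. The study's criterion for a changed gene, a 1.5-fold change or more with an unadjusted p of at most 0.05, was an alternative, as were other background corrections, normalizations, filters and probe summaries and leaving out each array. All arrays lay on 1 slide, so no slide block was possible. The study's methods mention a reverse-color label, but the labels give Cy3 for Ctrl on all arrays, and the direction is taken from the labels.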

Additional observations from a re-analysis of the deposited data

Results flagged for a closer look

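These probes differed between the groups by the test of the difference itself in limma, with values on the log2 scale for the GALNT3/T6-labelled arrays minus the GALNT3 KO arrays. Among the branching enzymes they were MGAT4A at 1.00, MGAT4B at 1.34, MGAT5B A_24_P219474 at 0.98, FUT8 at 1.38, MAN2A1 A_23_P18931 at 0.80, MAN2A1 A_23_P360769 at 1.34 and MAN2A2 A_23_P206041 at 2.18. Their adjusted p lay between 0.00303 for MAN2A2 and 0.0403 for MGAT4A.

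Among the named genes upstream of branching, DPM3 was at -1.34, ALG10B at -1.32, ALG5 at -1.21, TUSC3 at -1.31 and STT3A at -0.9996, and TMEM258 was at 0.81. EDEM2 was at 2.20, with GALNT3 KO below Ctrl and the other group above it, UGGT2 at -1.29 and EDEM3 at -1.16.

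Of the donor genes, GNPNAT1 was at -1.90, GFPT2 at 1.47 and PGM3 at 1.36. With all PGM3 probes averaged its difference was 0.18 (adjusted p = 0.334), so its probes disagreed. Among genes of antenna extension and capping, ST6GAL1 was at -2.66, B4GALT5 at 2.32 and B4GALT4 at 1.80. LGALS3 was at 5.46, TGFBR2 at 3.17 and ITGA3 at 3.101. Adjusted p over the named genes of these lists lay between 0.000471 for TGFBR2 and 0.0473 for TMEM258.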

How the results depend on the processing

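Over the named probes and genes, 1146 results under the alternatives kept their direction and their side of the threshold, 132 lost a call, 16 gained one, 23 changed sign without a call and 9 MGAT3 values without a test moved. The counts in GALNT3 KO varied most. There, 2 member probes, 4408 of all probes and 13 other N-glycan genes were called. Agilent's own log ratio gave 0, 825 and 2, the deposited log ratios gave 0, 822 and 2, the mean of all probes of a gene 1, 2863 and 8, and the GALNT3 KO arrays alone 5, 13665 and 42. Median centring called 6 of the N-glycan genes and the study's criterion 7. Median centring also lowered the share of called probes that were higher in GALNT3 KO from 38% to 22.3%. For the GALNT3/T6-labelled arrays 8, 18706 and 52 were called, median centring left 4 members, and these arrays alone gave 12348 of all probes. Between the groups 7, 9673 and 38 were called, and 6439 with 1 probe per gene. MGAT3, at -4.85 on the GALNT3/T6-labelled arrays, was at -5.16 with Agilent's log ratio, -5.17 with the deposited log ratios and -2.45 as a mean of its probes. Sizes of other named genes on these arrays also moved under the alternatives. TGFBR2 ran from 2.06 to 3.61, SLC35A2 from 0.76 to 1.69 and DPM3 from -1.76 to -0.94. The cause of these changes was not tested.

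Leaving out 1 array at a time gave 0 to 5 members, 0 to 13665 of all probes and 0 to 42 N-glycan genes in GALNT3 KO, 6 to 9, 12348 to 18862 and 40 to 56 on the GALNT3/T6-labelled arrays, and 1 to 8, 1644 to 13302 and 7 to 52 between the groups. The mean of MGAT3 ran from -5.04 to -4.66. Without GALNT3 KO replicate 1 or 2, where the lone array is assumed to vary like the other group, limma called 0 probes in GALNT3 KO, with lowest adjusted p of 0.281 and 0.339, while 6513 and 4418 had an unadjusted p of at most 0.05, 3 and 1 of them members.

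The replicate numbers do not pair the arrays (r = -0.22). With the replicate block the difference between the groups called 7 members, 7084 of all probes and 28 N-glycan genes, and it ended the calls of STT3A (adjusted p = 0.078) and TMEM258 (adjusted p = 0.0878). The crossed pairing, chosen after seeing the data, called 7, 10773 and 39.

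The sign changes were in values that were not called. In GALNT3 KO median centring put MGAT3 A_23_P91742 at 0.049 and MAN2A2 A_24_P381838 at -0.14. Agilent's log ratio and the deposited one put MGAT5 A_24_P915784 at -0.00060 and -0.00066, MGAT5B A_24_P138784 at -0.21 in both and MAN2A1 A_23_P18931 at 0.13 in both. For the GALNT3/T6-labelled arrays they put MGAT1 at -0.14 in both and MGAT2 at 0.074 and 0.073. The difference of MGAT5 A_23_P16743 was -0.070 with median centring and -0.0047 and -0.0048 with these. Leaving out 1 array, MGAT2 ran from -0.26 to 0.030 in GALNT3 KO, from -0.43 to 0.37 on the GALNT3/T6-labelled arrays and from -0.31 to 0.48 between the groups. MGAT4A ran from -0.026 to 0.21 and MGAT5B A_24_P138784 from -0.13 to 0.15 in GALNT3 KO, and the differences of MGAT1 from -0.20 to 0.089 and MGAT5 A_23_P16743 from -0.10 to 0.15. The number of arrays, 2 a group, limits the precision.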
